A study of Mus musculus with 3 samples.

Results

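The receptor chains through which interferons and interleukin-12 (IL-12) reach type 2 innate lymphoid cells (ILC2s) were examined together with Ifng, the gene of interferon-gamma, and Tbx21, the gene of the transcription factor T-bet. The members were chosen by gene symbol, as chains of receptors for type 1 cytokines that restrain ILC2s, and are Ifngr1, Ifngr2, Ifnar1, Ifnar2, Il12rb1, Il12rb2, Ifng and Tbx21. All 8 were among the 16129 listed genes. The cells were ILC2s sorted by flow cytometry from digested lungs of wild type mice treated with the alarmin IL-33 in vivo. Replicates 1, 2 and 3 of this single group were RNA sequencing libraries of 19948056, 19883728 and 19976129 estimated reads. The sources used here give no strain, age, sex, sorting antibodies or IL-33 dose. They also do not say whether each library is a separate mouse or culture, and p-values and SDs then measure a spread that may be technical. No untreated cells were analysed here, so no response to IL-33 could be measured and all comparisons are between genes within a library. Levels are in TPM, the authors' read share per transcript length scaled to the same total in each library, given as mean ± SD over 3 libraries.

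Interferon-gamma binds a receptor built from a ligand-binding chain, encoded by Ifngr1, and an accessory chain, encoded by Ifngr2, which together signal through the kinases JAK1 and JAK2. Type I interferons bind IFNAR1 and IFNAR2, which signal through TYK2 and JAK1 to STAT2 and IRF9. IL-12 needs both the beta 1 chain (Il12rb1), which is also part of the IL-23 receptor, and the beta 2 chain (Il12rb2), through which STAT4 is recruited. In mouse lung, both interferon classes are known to restrain the expansion and cytokine output of ILC2s, and IL-12 with IL-18 is known to shift ILC2s toward T-bet and interferon-gamma.

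The labelled cell type was checked against its markers. All 13 ILC2 markers were detected, with a median of 659 TPM. Of 17 listed markers of natural killer cells and group 1 innate lymphoid cells, which express T-bet and interferon-gamma, 7 were detected, and the summed level of that list was 77.0 to 80.6 TPM across libraries. Klrb1b (42.6 ± 1.67 TPM) made up most of that sum, followed by Fcer1g (8.37), Itga2 (7.90), Tyrobp (5.57), Gzma (4.62), Xcl1 (3.58) and Cd244a (3.30). The other 10 averaged below 1 TPM, among them Ncr1 (0.147), Klrb1c (0.133) and Eomes (0.190), and none was at 0 in all libraries. Throughout, a gene is called detected if all 3 libraries had at least 1 TPM of it. By this rule 67.3% of all listed genes were detected, so a count of detected markers does not by itself show a cell type. Of 11 T cell markers, 6 were detected and the list summed to 597 to 620 TPM. Cd3g (416 ± 8.15) and Lat (175 ± 11.1) made up most of it. Trat1 (8.67 to 9.43 TPM across libraries), Cd3e (6.09 to 8.99), Cd3d (1.3 to 2.27) and Cd28 (1.08 to 1.56) were also detected. Cd8a and Cd8b1 averaged 0.81 and 0.227 TPM, and Cd4, Cd5 and Cd6 were at 0.2 TPM or less on average. Of 14 listed macrophage and monocyte markers, 8 were detected and the list summed to 393, 385 and 538 TPM in replicates 1, 2 and 3, led by Chil3 (375 ± 74.7). B cell, dendritic, epithelial and endothelial markers were detected in 1 of 6, 3 of 6, 6 of 8 and 2 of 6 cases, with sums of at most 25.3, 20.7, 60.8 and 84.1 TPM.

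Of the 8 genes, 7 were detected, against 67.3% of all listed genes. All 8 had 27 or more estimated reads in each library. Among listed genes with 10 or more in each library, 92.7% were detected. With other detection rules the number was 8 at 0.5 TPM (71% of all listed genes), 5 at 5 TPM (57.6%) and 7 at 1 FPKM (63.5%). All 4 interferon receptor chains and Il12rb1 averaged between 42.2 and 231 TPM. Tbx21 and Ifng averaged 3.46 and 2.79 TPM, and Il12rb2 lay at the detection level with 0.943 TPM. The plot of levels by library shows them side by side.

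**Figure D1:**
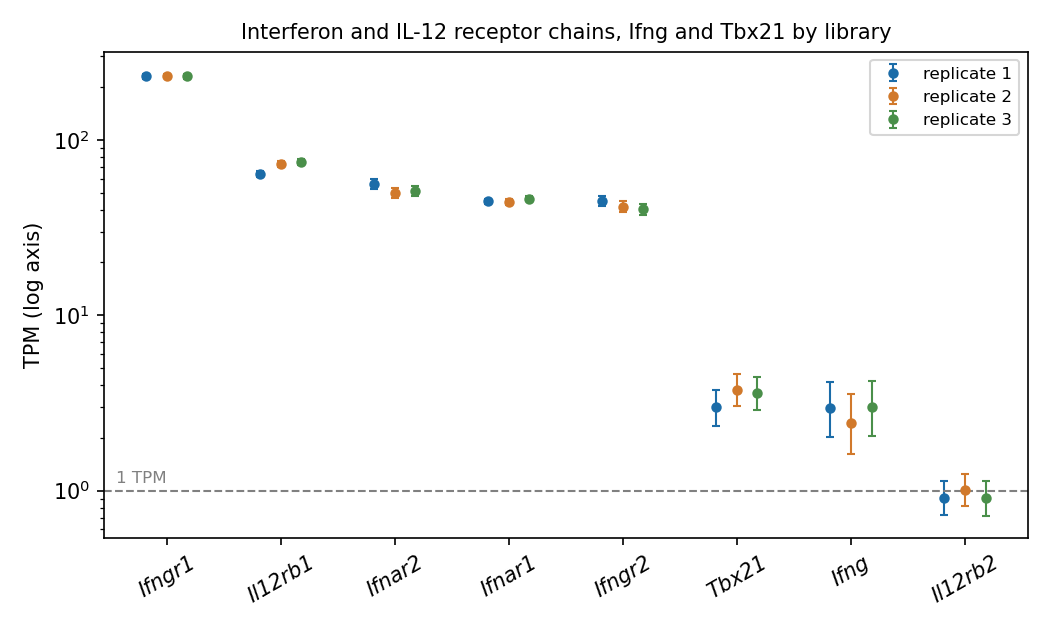
TPM of the 8 genes in each of the 3 libraries, on a log axis, ordered by mean; bars are 95% exact Poisson intervals of the estimated reads and cover counting error only, and the dashed line marks 1 TPM. Ifngr1 lies above 230 TPM in all libraries, 4 further receptor chains lie between 40.2 and 75.2 TPM, and Tbx21, Ifng and Il12rb2 lie at or below 3.77 TPM.

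Positions are those of RefSeq on GRCm38.p6. Ifngr1 (Entrez gene 15979) spans chromosome 10 from 19591949 to 19610229, and Ifng (15978) chromosome 10 from 118441046 to 118445894. Il12rb1 (16161) spans chromosome 8 from 70808360 to 70823542, Il12rb2 (16162) chromosome 6 from 67285986 to 67376293, and Tbx21 (57765) chromosome 11 from 97098007 to 97115331. Ifnar2 (15976), Il10rb, Ifnar1 (15975) and Ifngr2 (15980) lie in this order within 191225 bases of chromosome 16, from 91372783 to 91564007. The 4 receptor chains of this cluster averaged 52.5, 72.1, 45.1 and 42.2 TPM in that order. Tmem50b, the next gene after Ifngr2, had 32.8 ± 2.39 TPM, and Dnajc28 after it had 1.37 ± 0.356 TPM. By contrast Ifngr1 is followed by Il22ra2, which was not listed, and lies apart from the chain it pairs with. Tbkbp1, next to Tbx21, had 0.437 ± 0.159 TPM.

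Promoter windows, from 250 bases before to 50 after the annotated start, were taken from RefSeq (GRCm38.p6) and were found for 7 of the 8 genes, without Il12rb1. For Ifnar1 and Il12rb2 the start used for the window lies inside the gene span, not at its outer end. The windows below show the contrast between the highest chain and its partner, and between the lowest chain and the cytokine. They are written 5′ to 3′ on the strand of the gene, with CG dinucleotides in capitals and, in Ifng, the letters TATAAA.
Ifngr1, plus strand, chr10:19591699-19591998: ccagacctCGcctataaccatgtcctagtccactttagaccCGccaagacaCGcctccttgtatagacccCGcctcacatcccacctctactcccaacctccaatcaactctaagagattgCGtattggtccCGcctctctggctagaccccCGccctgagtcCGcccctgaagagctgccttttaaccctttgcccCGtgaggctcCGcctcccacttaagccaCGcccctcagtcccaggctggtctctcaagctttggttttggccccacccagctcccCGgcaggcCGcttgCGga
Ifngr2, plus strand, chr16:91546809-91547108: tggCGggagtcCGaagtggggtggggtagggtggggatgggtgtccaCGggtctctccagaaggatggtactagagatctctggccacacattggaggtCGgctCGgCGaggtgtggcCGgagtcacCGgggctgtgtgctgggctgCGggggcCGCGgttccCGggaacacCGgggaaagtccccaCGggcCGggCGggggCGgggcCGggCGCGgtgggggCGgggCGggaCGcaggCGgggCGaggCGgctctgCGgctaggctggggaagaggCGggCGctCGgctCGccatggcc
Il12rb2, minus strand, chr6:67376139-67376438: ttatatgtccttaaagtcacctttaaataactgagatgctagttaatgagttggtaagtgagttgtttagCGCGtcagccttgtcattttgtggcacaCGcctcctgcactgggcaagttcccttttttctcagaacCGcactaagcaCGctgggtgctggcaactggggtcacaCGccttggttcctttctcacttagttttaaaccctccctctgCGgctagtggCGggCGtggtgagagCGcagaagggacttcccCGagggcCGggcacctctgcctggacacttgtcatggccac
Ifng, plus strand, chr10:118440796-118441095: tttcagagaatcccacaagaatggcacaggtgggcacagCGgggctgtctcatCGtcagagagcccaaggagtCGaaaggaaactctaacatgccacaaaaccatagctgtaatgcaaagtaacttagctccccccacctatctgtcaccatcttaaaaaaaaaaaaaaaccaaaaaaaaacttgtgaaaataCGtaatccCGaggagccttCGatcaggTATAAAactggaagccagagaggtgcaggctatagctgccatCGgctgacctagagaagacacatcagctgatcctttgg

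The Ifng window was the poorest in CG dinucleotides of the 7, with 7 of them and a GC content of 46%, and it alone held TATAAA on the strand of the gene, starting 30 bases before the start. TATAAA occurred on that strand in 5.14% of the 16147 windows of listed genes. Il12rb2 and Ifngr1 held 12 and 14 CG dinucleotides, Ifnar2 18, Tbx21 21, Ifnar1 26 and Ifngr2 31, against a median of 18 over the windows of listed genes. Ifng and Il12rb2, the genes with the lowest levels, thus had the lowest counts, whereas Ifngr1, with the highest level, had fewer than Ifngr2 and Tbx21. Over listed genes, 39.4% of 3510 with 0 to 9 CG dinucleotides were detected, 74.95% of 3266 with 10 to 19 and 82.9% of 5986 with 20 or more, with median levels of 0.447, 15.5 and 23.9 TPM. Letters of the STAT-type motif TTCNNNGAA, which reads the same on both strands, occurred in the windows of Ifnar1, Ifnar2, Il12rb2 and Ifng, and in 6.99% of all windows of listed genes. None of the 7 windows held, on either strand, the interferon-stimulated response element core (GAAA, any 2 bases, GAAA), the T-box letters AGGTGTGA or the GATA letters AGATAA. These occurred in 3.13%, 0.985% and 7.48% of windows of listed genes, and no match in the 7 windows overlapped another. These matches describe letters only, and binding was not measured.

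**Figure D2:**
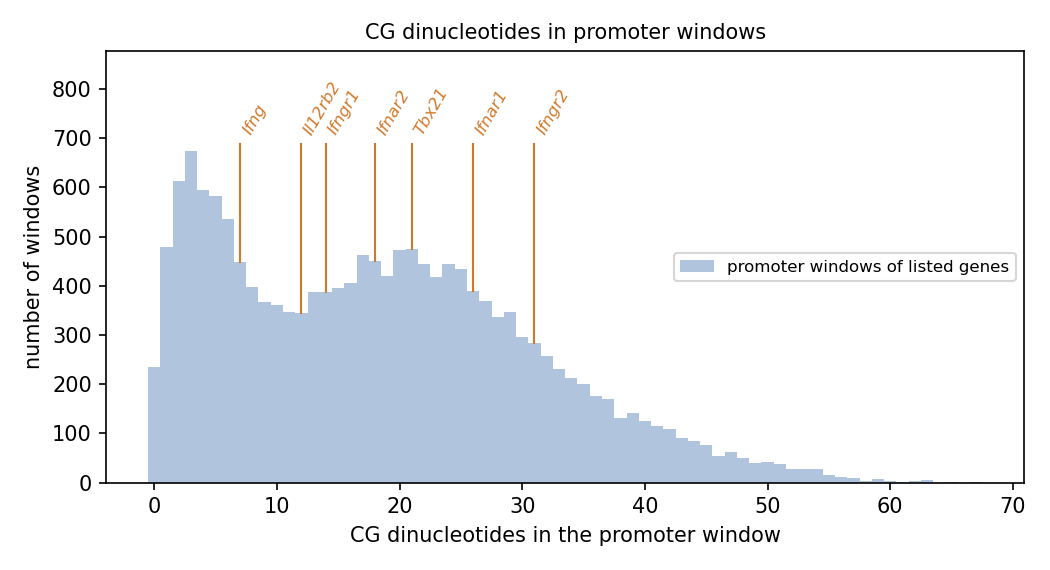
Number of promoter windows of listed genes (bars) by their count of CG dinucleotides, with the 7 genes found in the table marked by lines. Ifng lies lowest at 7, Ifngr2 highest at 31, and Ifngr1, the gene with the highest level, at 14.

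Ifngr1, the ligand-binding chain of the interferon-gamma receptor, had 230, 232 and 231 TPM in replicates 1, 2 and 3. It was the highest of the 8 genes in every library, and its coefficient of variation of 0.413% was the smallest among them. It ranked 584 of 16129 listed genes by mean level. Ifngr2, the accessory chain of the same receptor, had 44.8, 41.6 and 40.2 TPM and ranked 4042. The ranges of both chains did not overlap. Ifngr1 exceeded Ifngr2 by 2.43 ± 0.0797 on the log2(TPM + 1) scale, a mean TPM ratio of 5.49, and was higher in 3 of 3 libraries. Flipping the signs of the 3 differences in every way (exact permutation, two-sided) gave p = 0.25, below which 3 libraries cannot go. Each of the 7 contrasts between genes had this p, also after Benjamini-Hochberg adjustment over the 7, so none could pass a threshold of 0.05.

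The type I interferon receptor chains differed little as deposited. Ifnar1 had 44.6, 44.4 and 46.3 TPM, and Ifnar2 had 56.4, 49.97 and 51.2 TPM. Ifnar1 was below Ifnar2 in 3 of 3 libraries, with a difference of -0.21 ± 0.102 on the log2(TPM + 1) scale, and their ranges did not overlap. The direction of this difference turned when the length of the longest GENCODE coding transcript was used instead, as described below. As deposited, the mean log2 level of the pair Ifngr1 and Ifngr2 exceeded that of Ifnar1 and Ifnar2 by 1.01 ± 0.0372, in 3 of 3 libraries. With GENCODE transcript lengths this excess was 0.58. Under both lengths Ifngr2 averaged below Ifnar1 and Ifnar2, so the excess came from Ifngr1. Ifngr2 and Ifnar1, the lower chains of both receptors as deposited, had overlapping ranges.

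Il12rb1 and Il12rb2, the chains of the IL-12 receptor, were far apart. Il12rb1, which binds the subunit that IL-12 and IL-23 share, had 64.0, 73.0 and 75.2 TPM in replicates 1, 2 and 3. Il12rb2, the chain that the IL-12 receptor does not share with the IL-23 receptor, had 0.91, 1.01 and 0.91 TPM. Replicate 2 alone reached the detection level, and each library's 95% Poisson interval included 1 TPM, the lowest running from 0.719 to 1.13 TPM. In all 3 libraries Il12rb1 was above Il12rb2, by 5.20 ± 0.115 in log2(TPM + 1), a mean TPM ratio of 75.1. This difference was 6.08 with a pseudocount of 0.1, 4.59 with FPKM and 4.39 with GENCODE transcript lengths. The 4 interferon receptor chains together exceeded the IL-12 receptor chains by 2.58 ± 0.108 in mean log2 level, and by 1.77 with GENCODE transcript lengths. This excess was 3.02 with a pseudocount of 0.1 and 2.28 with FPKM. As deposited, Il12rb1 (70.7 TPM) averaged above Ifnar2, Ifnar1 and Ifngr2 and below Ifngr1. The excess thus rests largely on Il12rb2. Il23r, the alternative partner of Il12rb1 in the IL-23 receptor, had 0.17, 0.13 and 0.04 TPM, from 1 to 4 estimated reads per library. The excess of Il12rb1 over Il23r was 6.01 ± 0.201 on the log2(TPM + 1) scale and 8.42 with a pseudocount of 0.1, so its size depends on the pseudocount.

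Ifng and Tbx21, the signature cytokine and transcription factor of type 1 lymphocytes, were detected at low level. Ifng had 2.95, 2.44 and 2.99 TPM, resting on 33, 27 and 33 estimated reads. The 95% Poisson interval in replicate 2 ran from 1.61 to 3.55 TPM, which contains the values of both other libraries. Tbx21 had 2.98, 3.77 and 3.62 TPM, from 72 to 89.8 estimated reads. Replicate 1 was the lowest, and its 95% Poisson interval of 2.33 to 3.75 TPM contains the value of replicate 3 but not that of replicate 2. The ranges of Tbx21 and Ifng overlapped, although Tbx21 was the higher of both in each library. In bulk RNA, a few cells with much of a transcript and many cells with little of it cannot be told apart. Of the 17 listed natural killer and group 1 innate lymphoid cell markers, the 7 detected ones averaged 3.30 to 42.6 TPM, 6 of them above the 3.46 TPM of Tbx21 and all above the 2.79 TPM of Ifng. The other 10 averaged 0.0633 to 0.927 TPM. Of the T cell markers, Cd3g, Lat, Trat1 (8.67 to 9.43 TPM) and Cd3e (6.09 to 8.99) exceeded Tbx21 and Ifng in each library. Cd3d (1.3 to 2.27 TPM) and Cd28 (1.08 to 1.56) were below both, and the undetected T cell markers averaged 0.81 TPM or less. The part of other cells, T cells among them, in the Ifng and Tbx21 levels was not tested.

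The order by mean level was Ifngr1, Il12rb1, Ifnar2, Ifnar1, Ifngr2, Tbx21, Ifng and Il12rb2. Of the 7 neighbouring pairs in this order, Ifnar1 with Ifngr2 and Tbx21 with Ifng had overlapping ranges and did not differ beyond their spread. The widest step was between Ifngr2 and Tbx21, with a ratio of means of 12.2 as deposited. Between Ifng and Il12rb2 the ratio of means was 2.96. Both steps depended on transcript length. With GENCODE lengths and no recount of reads, Ifngr2 came to 23.4 TPM beside 3.48 TPM for Tbx21. Under the same lengths Il12rb2 (2.89 TPM) averaged above Ifng (2.69 TPM), with overlapping ranges.

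Spread between libraries was compared with counting error through the index of dispersion, the variance of depth-scaled estimated reads over their mean. Counting error alone gives 1 on average, but over 3 libraries the index of a single gene varies widely. The index was 0.315 for Ifngr1, 0.859 for Ifnar1, 2.08 for Ifnar2, 3.40 for Ifngr2, 0.294 for Il12rb2, 0.373 for Ifng and 1.083 for Tbx21. Il12rb1 stood apart at 14.0, above the 95th percentile of 12.0 among 2602 genes with a mean of 1500 to 6000 reads, whose median was 2.23. The 5th percentile of these genes, to whose range Ifngr1 and Ifnar1 also belong, was 0.184. Among 3488 genes with 500 to 1500 reads, as for Ifngr2 and Ifnar2, both percentiles were 0.0940 and 5.97. Among 1535 genes with 20 to 100 reads, as for Il12rb2, Ifng and Tbx21, they were 0.0747 and 4.32. All members but Il12rb1 lay between these limits. Il12rb1 had 2014 reads in replicate 1, against 2300.2 and 2333 in replicates 2 and 3. In TPM, the kinase genes Jak3 (176, 191 and 193), Jak1, Jak2 and Tyk2 were also lowest in replicate 1. By contrast Ifngr2, Ifnar2, Il10rb, Stat2 and Stat4 were highest there. Reads of the kinase genes per library were 13784 to 13892 (Jak1), 5885 to 6038 (Jak2), 3005 to 3053 (Tyk2) and 6349 to 6852 (Jak3). The share of all listed genes that were lowest in replicate 1 was not computed.

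Transcript length affected these levels, because TPM divides reads by length. The length behind each deposited value was worked back from estimated reads, FPKM and depth. This length was compared over 442 listed genes with a single coding transcript in GENCODE M21 and at least 5 FPKM in each library. It was 0.973 times the GENCODE length at the median, 0.560 at the 5th and 1.29 at the 95th percentile. For Ifngr1 (2063 bases), Ifng (1163), Tbx21 (2506) and Il12rb1 (3281) the length lay within 0.963 to 1.14 times the longest GENCODE coding transcript. For Il12rb2 it was 9177 bases, 3.06 times the 2998 bases of the GENCODE transcript, and for Ifnar1 it was 6966 bases against 3909. Ifngr2 and Ifnar2 went the other way, with 2056 against 3708 bases and 1711 against 3047 bases.

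Rescaling the same reads to the GENCODE lengths, an alternative chosen after seeing the data, kept Ifngr1 highest at 226 ± 0.933 TPM. The reads were not counted again on GENCODE transcripts, so only the length changed and a new count could differ. For Il12rb2 and Ifnar1 the GENCODE transcript is shorter, and reads from outside it stay counted, so their rescaled levels may be too high. For Ifngr2 and Ifnar2 it is longer, so their rescaled levels may be too low. Il12rb2 came to 2.89 ± 0.182 TPM, beside 2.69 ± 0.299 for Ifng and 3.48 ± 0.423 for Tbx21, and all 8 genes then passed the detection level. The share of all listed genes detected at GENCODE lengths was not computed. Ifnar1 came to 80.4 ± 1.79 TPM, Ifnar2 to 29.4 ± 1.21 TPM and Ifngr2 to 23.4 ± 1.29 TPM. Ifnar1 then exceeded Ifnar2 by 1.42 on the log2(TPM + 1) scale, against -0.21 as deposited. The excess of Il12rb1 over Il12rb2 was 4.39 and that of Ifngr1 over Ifngr2 was 3.22. The order of Ifnar1 and Ifnar2, and that of the means of Ifng and Il12rb2, whose ranges then overlapped, therefore turned with the length used, while Ifngr1 was highest and Il12rb1 was above Il12rb2 under both lengths.

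**Figure D3:**
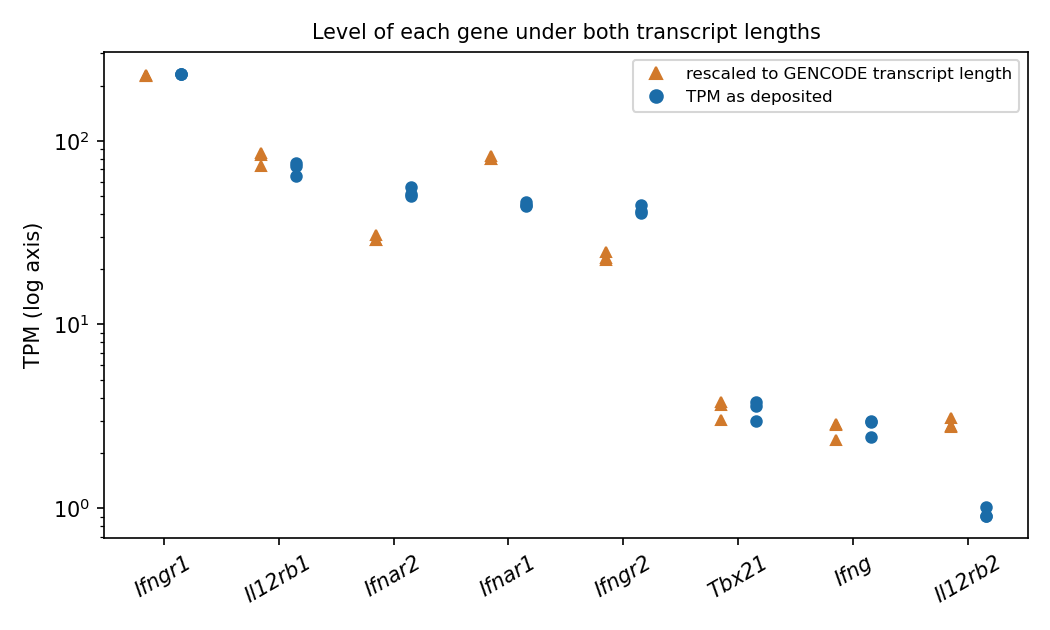
TPM of the 8 genes in each library on a log axis, rescaled to the longest GENCODE coding transcript (triangles, left) and as deposited (circles, right). Ifnar1 is at 80.4 rescaled and 45.1 as deposited, Ifnar2 at 29.4 and 52.5, and Il12rb2 at 2.89 and 0.943.

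Reads of Il12rb2 carry a further uncertainty. In RefSeq its 3′ end and that of Serbp1 (164 ± 3.26 TPM), an RNA-binding protein gene on the opposite strand, overlap by 3317 bases from 67285986 to 67289302 on chromosome 6. In GENCODE, 38.0% of the distinct 50-base words of Il12rb2 transcripts also occur in Serbp1 transcripts, read on the opposite strand. No source used here says whether the counting used strand, so the 79.2 to 87.8 estimated reads of Il12rb2 per library cannot be assigned to it with certainty. The share was 0.545% or less for Ifngr1, Ifngr2, Il12rb1 and Tbx21, and 0.824% for Ifnar1. Ifng shared 19.9% with Gm49751, and Ifnar2 shared 7.89% with Gm21970, which also shares 13.6% of the words of Il10rb.

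The 59 listed cytokine receptor chains place these genes among their like. Ifngr1 held place 8, between Tgfbr2, a TGF-beta receptor gene (320 ± 9.19 TPM), and the IL-9 receptor gene Il9r (218 ± 4.33 TPM). Il12rb1 held place 19, next below the IL-10 receptor chain gene Il10rb (72.1 ± 3.47 TPM), whose range overlapped its own. Ifnar2, Ifnar1 and Ifngr2 held places 20, 22 and 23. They lay around the IL-3 receptor gene Il3ra (49.5 ± 1.59 TPM) and above the IL-4 receptor gene Il4ra (27.9 ± 1.38 TPM). Il12rb2 held place 37, between Il17rd (1.18 ± 0.166 TPM) and Tgfbr3 (0.730 ± 0.0529 TPM). Nearness here is in mean TPM over 3 libraries of 1 group, since like libraries give no pattern across conditions.

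Receptors that share a chain or a function with the 8 genes were set beside them. In the IL-10 receptor, Il10ra had 114 ± 5.35 TPM and Il10rb 72.1 ± 3.47 TPM. The IL-18 receptor chains Il18rap (167 ± 5.31) and Il18r1 (89.5 ± 2.34 TPM) were likewise both well detected. In the IL-27 receptor, Il27ra was high at 212 ± 7.16 TPM and its partner Il6st, which encodes gp130, lower at 4.85 ± 0.00577 TPM. Il27ra exceeded Il12rb2 by 6.78 ± 0.0886 on the log2(TPM + 1) scale, by 7.67 with a pseudocount of 0.1 and by 5.67 with GENCODE lengths. Ifnlr1, the specific chain of the interferon-lambda receptor, had 0.07 to 0.08 TPM from at most 2.99 estimated reads per library. Of the 8 receptors compared, IL-12, IL-23 and interferon-lambda were those with a chain not detected. In each, the undetected chain was the one not shared with another of the 8 receptors. As both shared chains, Il12rb1 and Il10rb, were detected, this could not have come out otherwise for these receptors. By the same rule 35 of the 59 listed cytokine receptor chains were detected (59.3%). Under the GENCODE length, without a recount of reads, Il12rb2 passed the detection level.

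**Figure D4:**
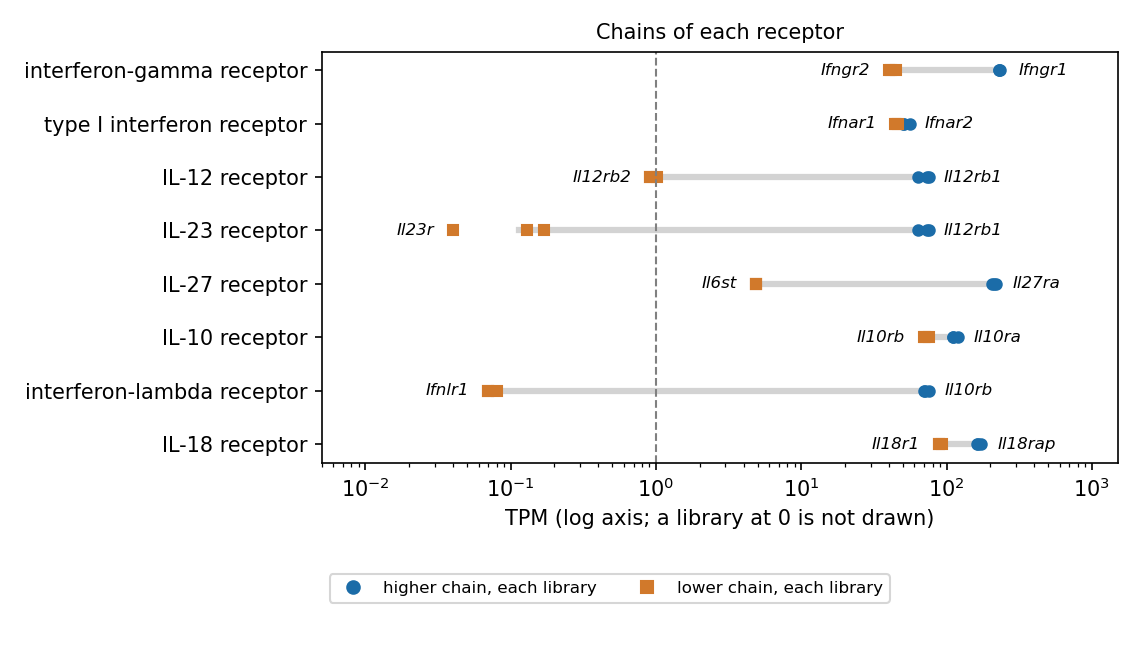
TPM of both chains of 8 receptors on a log axis, 1 mark per library, with the higher chain as circles, the lower as squares and the means joined by a bar; the dashed line is 1 TPM. In the interferon-gamma, type I interferon, IL-10 and IL-18 receptors both chains lie above 40 TPM, whereas Il12rb2, Il23r and Ifnlr1 lie at or below 1.01 TPM.

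All 9 Janus kinase and STAT genes listed for these pathways were detected, against 67.3% of all listed genes, with a median of 137 TPM against 11.2 TPM over all listed genes. Jak1, used by interferon receptors of both classes, was highest at 302 ± 5.51 TPM. Jak2, used by the interferon-gamma and IL-12 receptors, had 137 ± 3.93 TPM, and Tyk2, used by the type I interferon and IL-12 receptors, had 68.1 ± 1.18 TPM. Stat4, the mediator of IL-12, had 91.5 ± 5.75 TPM although Il12rb2 was at 0.943 TPM. Of the 50-base words of Stat4, 21.7% also occur in the GENCODE gene Gm28177. Irf9 and Stat2, which act together downstream of type I interferon, had 48.0 ± 0.540 and 23.9 ± 0.524 TPM.

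All 12 listed attenuators of cytokine signalling were detected, against 67.3% of all listed genes, with a median of 27.0 TPM against 11.2 TPM. This list is not limited to inhibitors of the interferon and IL-12 receptors. Cish was highest at 243 ± 12.5 TPM, followed by the phosphatase genes Ptpn2 (102 ± 3.96), Ptpn1 (71.3 ± 1.82) and Ptpn6 (66.4 ± 1.06 TPM). Socs1, an inhibitor of interferon-gamma signalling, had 16.3 ± 0.956 TPM, and Usp18, which restrains the type I interferon receptor at IFNAR2, had 5.66 ± 0.140 TPM. The ligands were largely missing from these libraries. Of 16 ligand genes, 8 were listed and 1 of these was detected, namely Ebi3 (26.4 ± 2.16 TPM), a subunit shared by IL-27 and IL-35. Il12a and Il12b, the subunits of IL-12, averaged 0.117 and 0.0300 TPM, with at most 3 and 1.07 estimated reads in a library.

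Of 27 listed interferon-gamma response genes, 24 were detected (88.9%, against 67.3% of all listed genes), with a median of 32.3 TPM against 11.2 TPM over all listed genes. They were led by the immunoproteasome genes Psmb8 (334 ± 8.25), Psmb9 (193 ± 6.03) and Psmb10 (119 ± 4.08), the peptide transporter gene Tap1 (269 ± 14.7), Irf1 (92.6 ± 2.38) and the GTPase gene Igtp (88.4 ± 5.57 TPM). Cxcl9, Ido1 and Nos2, typical of activated myeloid cells, were below 1 TPM in all libraries. Of 28 listed type I interferon response genes, 22 were detected (78.6%, against 67.3% of all listed genes), and the median of 8.25 TPM lay below the 11.2 TPM of all listed genes. The list was led by Bst2 (68.7 ± 2.37), Trim30a (49.7 ± 2.33), Zbp1 (47.7 ± 3.23) and Irf7 (30.9 ± 1.42 TPM). Ifi44, Ifit3, Ifit3b, Oas2 and Oasl2 of that list were below 1 TPM in all libraries. Ifit3 shares 51.2% of its 50-base words with its copy Ifit3b, so reads between both are split with uncertainty. Many of these genes are also expressed without interferon, and no untreated or interferon-treated cells were analysed here.

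Among 20 type 1 effector and T-bet-linked genes, 12 were detected, a share of 60% against 67.3% of all listed genes. The highest were Il2rb (363 ± 5.22), Klrg1 (356 ± 12.8), Il18rap, Runx3 (122 ± 1.93), Stat4 and Il18r1 (TPM). Klrg1 is also on the list of ILC2 markers. Ccl3, Cxcr3, Eomes, Gzmb and Hlx were below 1 TPM in all libraries. Cxcr3, a chemokine receptor gene that T-bet activates in T cells, had 0.27, 0.88 and 0.87 TPM.

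**Figure D5:**
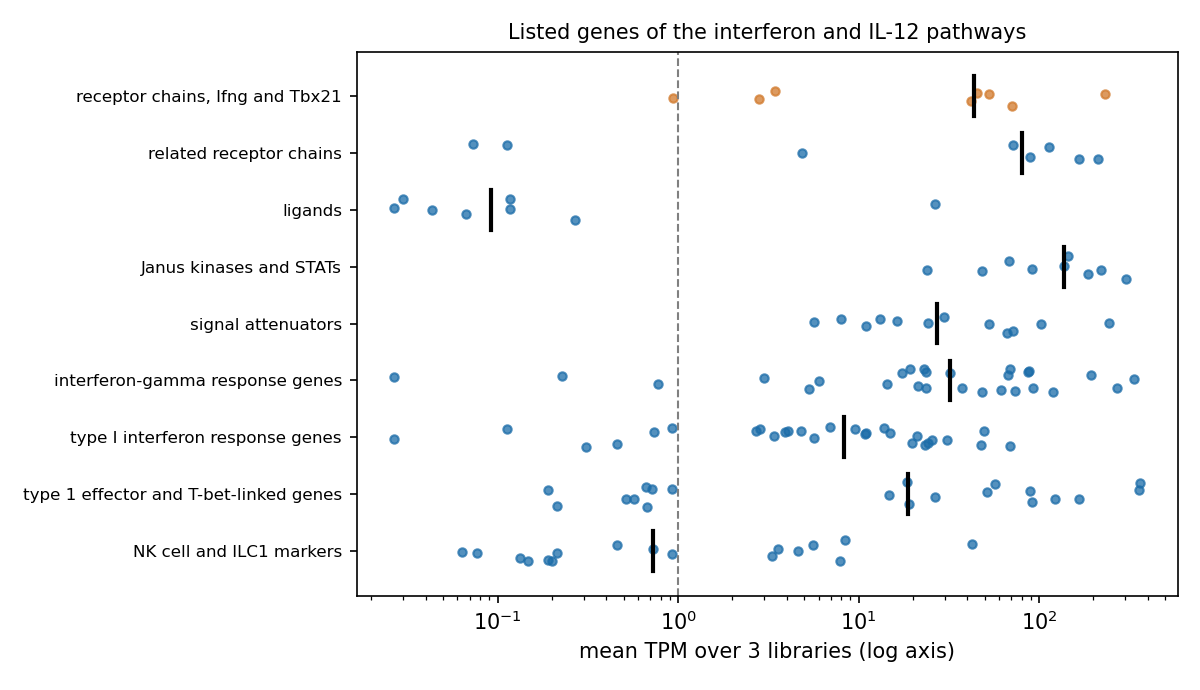
Mean TPM over 3 libraries of each listed gene, on a log axis, by gene list (points), with the list median as a black bar and 1 TPM as a dashed line; points are spread vertically at random. The median is 137 TPM for Janus kinases and STATs, 32.3 for interferon-gamma response genes, 8.25 for type I interferon response genes and 0.0917 for ligands.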

How the data were processed

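Bowtie2, RSEM 1.3.1 and the build GRCm38.p6 are credited to the submitters' processing notes, without roles or settings. No source used here gives the gene annotation or strand setting. The authors deposited expected counts (estimated reads, not whole numbers), TPM and FPKM per gene, per the file headers. The deposited normalised read counts, a depth-scaled signal, equalled the expected count rounded up times 1.00144, 1 and 0.997 in replicates 1 to 3 and were used no further. Levels are the deposited TPM and log values log2(TPM + 1). Contrasts are differences of log2 values within a library, tested by an exact two-sided sign-flip permutation. Poisson intervals (95%) take the expected count as whole reads and cover counting error only. The index of dispersion used expected counts scaled to equal depth. The spread was also computed with TMM factors (edgeR 4.0.16, on rounded expected counts). Shared words and transcript lengths came from GENCODE M21 (GRCm38), positions and promoters from RefSeq (GRCm38.p6). The code was tested on simulated data.

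Members and gene lists were chosen with earlier results of these data known. Named genes are the 8 members, any gene of a list of up to 16 genes, the 6 highest and up to 6 genes below 1 TPM in all libraries of a longer list, level neighbours among cytokine receptor chains and genome neighbours. Serbp1, the Gm genes sharing sequence, Cd244a and the natural killer cell markers Ncr1 and Klrb1c were named after their values were seen. Python 3.11.15 and scipy 1.17.1 were used. One gene of the Janus kinase and STAT list enters that list's count and median but is not reported here by itself.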

Additional observations from a re-analysis of the deposited data

How the results depend on the processing

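No paired analysis was possible because the 3 libraries form 1 group. The contrasts kept their direction with a pseudocount of 0.1, with FPKM and without each replicate. With GENCODE transcript lengths, chosen after seeing the data, 6 of 7 kept it and Ifnar1 minus Ifnar2 turned to 1.42 on the log2(TPM + 1) scale, since the lengths of Ifnar1 and Ifnar2 move opposite ways. Under these lengths the levels were 226 TPM for Ifngr1, 23.4 for Ifngr2, 80.4 for Ifnar1, 29.4 for Ifnar2, 80.8 for Il12rb1 and 2.89 for Il12rb2, while Ifng and Tbx21 moved by less than their SD. Of the 8 genes, 7 were detected without each replicate in turn. With GENCODE lengths 8 were, without a recount of reads and with no share over all listed genes computed. The detected share of listed genes was 92.7% among genes with 10 or more expected counts in each library. Few reads stand behind Ifng (27 to 33 per library), Xcl1 (12 to 21), Il23r (1 to 4), Ifnlr1 (2.73 to 2.99), Il12a (0 to 3) and Il12b (0 to 1.07). Outlier checks do not apply to a group of 3 libraries.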
